A study of Mus musculus with 30 samples.

Results

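A set of 10 genes that skeletal muscle uses to change fuel were followed in the extensor digitorum longus (EDL), a fast hindlimb muscle, of mice with experimental autoimmune encephalomyelitis (EAE), an animal model of multiple sclerosis. They were taken by gene symbol from the expression table, and all 10 (PDK4, PDK2, LPL, ANGPTL4, CD36, FABP3, MLYCD, CPT1B, UCP3 and UCP2) were found among its 21073 genes. Gene expression had been measured by RNA-Seq in 30 female wild-type SJL/J mice, 5 in each of 6 groups and each mouse once. EAE-induced mice (EAE) were immunized with the peptide [Ser140]-PLP139-151 in complete Freund's adjuvant (CFA), OVA-immunized mice (OVA) received ovalbumin in CFA, and unimmunized mice (Ctrl) received neither. Muscles were collected on day 14, the peak of disease, and on day 40, in remission, from different mice, so OVA mice share the adjuvant but not the antigen with EAE mice. The ages were not given in the sources used here, the labels name no batch of RNA or library preparation, and the day of collection therefore cannot be told apart from anything else that differed between the 2 collections.

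In fasting, muscle lowers its use of glucose and burns more fat. Pyruvate dehydrogenase kinases shut the entry of pyruvate into the mitochondrion's citric acid cycle. Lipoprotein lipase frees fatty acids from circulating triglyceride at the capillary wall, transporters and binding proteins carry them into the fibre, and carnitine palmitoyltransferase passes them into the mitochondrion, a step that malonyl-CoA blocks. Fatty acids also bind the nuclear receptors of the PPAR family, which drive many of these genes, and glucocorticoids and FOXO transcription factors drive PDK4 in particular.

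Expression was given as reads per kilobase of exon, scaled to the depth of each library (RPKM), so that levels of different genes may be set side by side. By their mean over the 30 mice the order was PDK2 (251 RPKM), LPL (172), FABP3 (152), PDK4 (104), CD36 (95.5), MLYCD (43.2), UCP3 (38.9), UCP2 (12.6), CPT1B (4.47) and ANGPTL4 (3.48). Depth, estimated from the table, was 18.1 to 31.7 M reads for each mouse. At that depth the member with the fewest reads, ANGPTL4, rested on 93 to 685 reads in a mouse. The spread between mice of a group, as the median SD of log2 values over the 6 groups, ran from 0.14 for PDK2 and 0.18 for LPL to 0.55 for ANGPTL4 and 0.58 for PDK4. The tissue label fit the data, with 8 of 8 skeletal muscle markers detected in every mouse and a summed level of 33570 to 55780 RPKM.

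The level of CPT1B, the muscle form of carnitine palmitoyltransferase 1, is uncertain. RefSeq (GRCm38.p6) places CPT1B on chromosome 15 from 89416405 to 89425862, wholly inside a read-through gene (Gm44502, 89416405 to 89429927) that also spans the neighbouring gene CHKB. That read-through gene has 0 rows in the table, CHKB was at 0 to 0.164 RPKM in all mice, and how reads shared by overlapping genes were assigned is not given in the sources used here. Differences of CPT1B between mice are reported with that limit.

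For 3 members whose levels moved together between mice, the 250 bases before the transcript start that the RefSeq promoter table uses are shown, 5′ to 3′ on the strand of the gene, in the build GRCm38.p6. For PDK4 and UCP3 that start is the outer end of the gene, whereas that of CD36 lies inside the gene's RefSeq span (chromosome 5, 17781690 to 17888959), so its window is not at the outer end of the gene. Capitals mark the nuclear receptor core motif AGGTCA or its reverse complement, the letters that receptors such as the PPARs bind in pairs.
PDK4 (chr6:5496279-5496528, minus strand): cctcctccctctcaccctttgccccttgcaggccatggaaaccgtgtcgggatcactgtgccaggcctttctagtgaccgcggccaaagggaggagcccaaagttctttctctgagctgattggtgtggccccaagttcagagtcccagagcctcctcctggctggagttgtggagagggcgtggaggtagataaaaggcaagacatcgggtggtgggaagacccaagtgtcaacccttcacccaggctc
UCP3 (chr7:100472741-100472990, plus strand): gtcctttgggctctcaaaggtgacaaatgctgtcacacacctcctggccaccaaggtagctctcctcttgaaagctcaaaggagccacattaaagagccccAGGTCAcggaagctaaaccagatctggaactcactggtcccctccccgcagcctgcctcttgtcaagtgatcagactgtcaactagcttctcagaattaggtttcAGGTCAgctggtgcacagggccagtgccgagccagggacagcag
CD36 (chr5:17835897-17836146, minus strand): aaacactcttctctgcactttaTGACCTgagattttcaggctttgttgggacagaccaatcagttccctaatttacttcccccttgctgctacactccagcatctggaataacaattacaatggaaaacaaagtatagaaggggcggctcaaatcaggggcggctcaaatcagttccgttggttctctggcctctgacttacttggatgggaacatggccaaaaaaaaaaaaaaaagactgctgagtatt
The windows searched ran from 250 bases before to 50 after the start, on both strands. UCP3 held the motif at 2 positions and CD36 at 1, and the windows of PDK4, PDK2, UCP2, FABP3 and MLYCD held 0. MLYCD, whose window is not shown, was also related to PDK4 and UCP3 within groups (r = 0.80 and 0.64). Of 32851 mouse promoter windows of the same length, 16.3% held at least 1 match and 1.81% at least 2, so a single match is common. A direct repeat of that motif with 1 base between (0.0396% of windows) and the forkhead motif TGTTTAC (3.65%) were in none of the members' windows. LPL, ANGPTL4 and CPT1B were not among the promoters used.

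**Figure D1:**
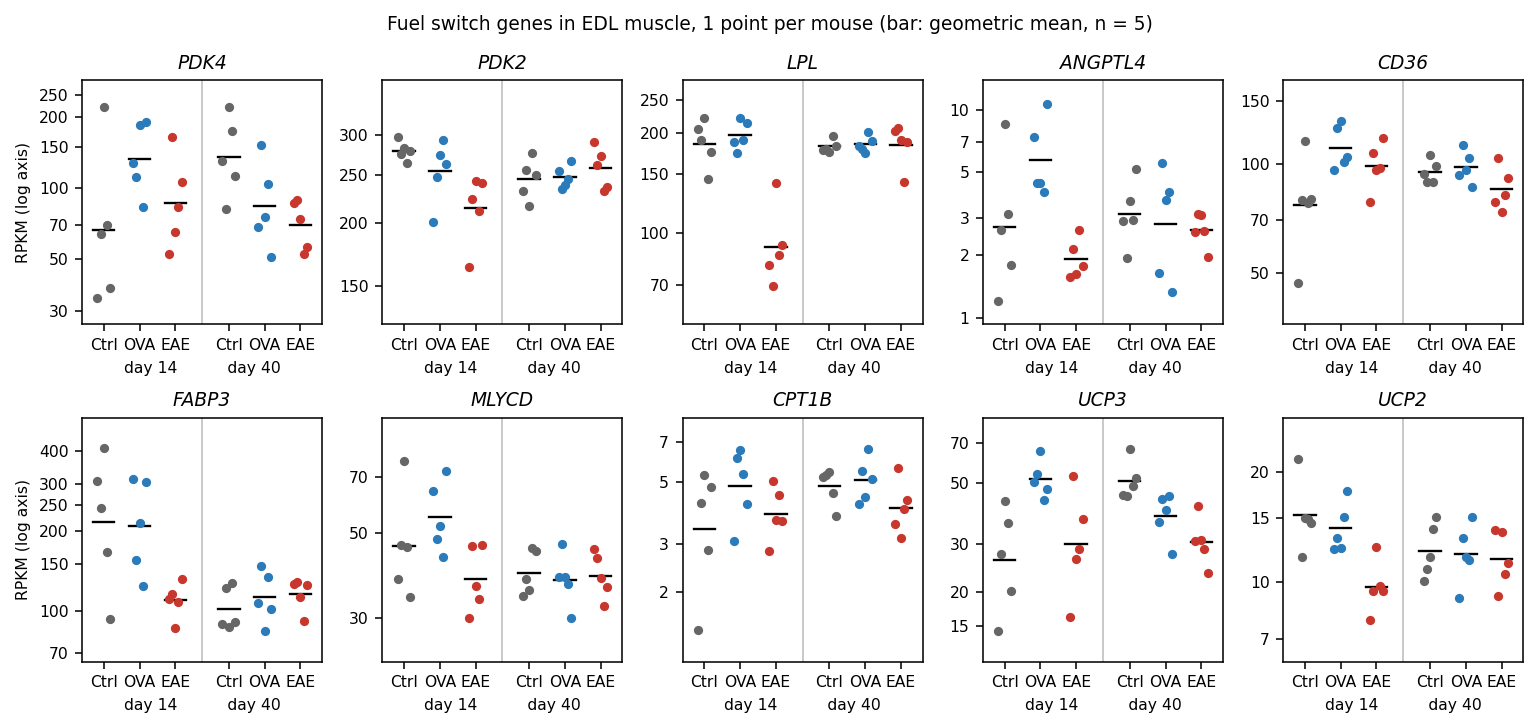
Level of each of the 10 genes in RPKM (log axis) in every mouse, by group and day, with the geometric mean as a bar (n = 5). On day 14 the 5 EAE mice lie below all Ctrl and OVA mice for LPL (69.3 to 141 RPKM), while on day 40 the 3 groups overlap.

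At the peak of disease the members called lower against both controls were LPL and FABP3, 2 genes of fatty acid supply. UCP2 was also lower than both by adjusted p, but against OVA mice by less than 1.5-fold. LPL fell to 0.49 of its level in Ctrl and 0.463 of that in OVA mice. FABP3 fell to 0.508 and 0.526, and both its calls were lost in some fits that left out 1 mouse. PDK4, the kinase most used as a sign of the fasting switch, did not pass the test against either control. The fit was limma's linear model on log2(RPKM + 0.1) over the 15 mice of a day, p-values were adjusted over all genes tested by the method of Benjamini and Hochberg, and a call needed both an adjusted p under 0.05 and more than a 1.5-fold difference. EAE vs. Ctrl on day 14 gave 3 called members of 10 (UCP2, LPL and FABP3), all lower, beside 26.4% of all genes tested called and 11.8% called lower. EAE vs. OVA gave 4 called members (LPL, FABP3, ANGPTL4 and UCP3), all lower, beside 20.3% of all genes tested called and 9.28% called lower. These 2 comparisons share the EAE mice. The share of all genes called lower in both is not given here, so LPL and FABP3 have no such share beside them. The median log2 difference of the members was -0.34 and -0.58, and that of all genes tested 0.11 in both.

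LPL hydrolyses the triglyceride of lipoproteins at the capillary surface and is made by the muscle fibre. On day 14 it stood at 206, 190, 221, 146 and 175 RPKM in the 5 Ctrl mice, at 188, 174, 221, 190 and 214 RPKM in the OVA mice, and at 80.5, 69.3, 141, 85.8 and 92.0 RPKM in the EAE mice. Every EAE mouse was below every control mouse, although the highest EAE mouse came close to the lowest Ctrl mouse. The log2 difference was -1.03 (SE 0.16, adjusted p = 0.000159) from Ctrl and -1.11 (SE 0.16, adjusted p = 9.56e-05) from OVA. On day 40 all 3 groups overlapped again, at 176 to 196 RPKM in Ctrl, 174 to 201 in OVA and 142 to 206 in EAE mice, with log2 differences of 0.02 (95% interval -0.16 to 0.20) from Ctrl and -0.00 (-0.18 to 0.18) from OVA. The change of the EAE effect between the days was 1.05 (SE 0.19, adjusted p = 8.4e-05) against Ctrl and 1.11 (SE 0.19, adjusted p = 5.55e-05) against OVA. The LPL calls on day 14 and of these 2 changes were kept without each mouse in turn.

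GPIHBP1, the endothelial anchor that carries LPL to the capillary lumen, was at 22.9 ± 2.84 RPKM (SD, n = 5) in EAE mice on day 14, against 34.3 ± 3.08 in Ctrl and 39.2 ± 9.09 in OVA mice. It passed the test and the fold threshold against OVA (log2 difference -0.75, SE 0.14, adjusted p = 0.000711), but against Ctrl it stayed under the fold threshold (-0.58, SE 0.14, adjusted p = 0.00347). The 9 endothelial markers summed to 116 to 154 RPKM in these EAE mice, against 140 to 189 in Ctrl and 125 to 195 in OVA mice, and none was at 0 in a mouse. Of these 9, 4 were called lower in EAE than in Ctrl mice and 3 than in OVA mice, with 0 higher. Called lower were 11.8% and 9.28% of all genes tested. The part of the endothelial levels in these results was not tested. In whole muscle, fewer cells of a type and less RNA per cell cannot be told apart.

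Markers of other cells also differed between the groups on day 14. The 9 neutrophil markers summed to 4.17 to 11.1 RPKM in Ctrl, 69.6 to 237 in OVA and 219 to 404 in EAE mice, and 5 of 5 tested were called higher than in Ctrl in EAE and in OVA mice. These 5 had means of 0.111 to 2.70 RPKM in Ctrl mice. By the filter of 3 RPKM they entered those tests only through the EAE or OVA mice, where they were high. Of the 9 markers, NGP, CAMP and LTF were at 0 in at least 1 of the 30 mice. S100A8 held most of the neutrophil sum in EAE mice (mean 225 RPKM, against 46.5 in OVA mice). S100A9 had means of 36.1 RPKM in EAE and 71.9 in OVA mice. In EAE vs. OVA 1 of 5 tested neutrophil markers was called higher and 0 lower. Of these 5, 2 had a positive log2 difference, and the median was -0.855. The 7 fibroblast markers summed to 956 to 1972 RPKM in Ctrl, 752 to 1115 in OVA and 328 to 535 in EAE mice, with 6 of 7 called lower in EAE than in Ctrl and 5 of 7 than in OVA mice. The 5 erythroid markers in the table summed to 190 to 685 RPKM in Ctrl, 477 to 1590 in OVA and 27.4 to 189 in EAE mice, with 4 of 4 tested called lower in EAE than in Ctrl and 5 of 5 than in OVA mice. No fibroblast or erythroid marker was at 0 in a mouse. The part of these cells in the results for the 10 genes was not tested.

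ANGPTL4 is a secreted inhibitor of LPL that fatty acids and fasting raise. It was low throughout, at 1.21, 2.65, 8.55, 3.17 and 1.79 RPKM in Ctrl, 7.37, 4.42, 4.43, 4.04 and 10.6 RPKM in OVA and 1.57, 2.13, 1.62, 2.64 and 1.77 RPKM in EAE mice on day 14. All EAE mice were below all OVA mice (log2 difference -1.54, SE 0.40, adjusted p = 0.00631), whereas Ctrl mice spanned both. ANGPTL4 entered that test, which asked for a mean over 3 RPKM in a compared group, only through the OVA mice (mean 6.18 RPKM, against 1.95 in EAE mice). It entered the test against Ctrl only through the Ctrl mice (3.47 RPKM). Against Ctrl the difference was -0.51 (SE 0.40, adjusted p = 0.295). The EAE vs. OVA difference moved by 1.44 (SE 0.54, adjusted p = 0.0401) up to day 40, when ANGPTL4 stood at 1.96 to 3.16 RPKM in EAE and 1.33 to 5.54 in OVA mice. That change lost its call without the filter (adjusted p = 0.0704) and in 12 of 30 fits that each left out 1 mouse. In EAE mice ANGPTL4 was not tested between the days, with means of 1.95 and 2.68 RPKM under the filter. The ratio of ANGPTL4 to LPL within a mouse, an index of the inhibitor against the enzyme, did not separate the groups by the exact test.

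FABP3 is the fatty acid binding protein of oxidative muscle and heart. It stood at 307, 243, 409, 167 and 93.1 RPKM in Ctrl, at 314, 156, 214, 124 and 306 RPKM in OVA and at 111, 117, 86.7, 108 and 132 RPKM in EAE mice on day 14. The EAE mice were low and close together, and the lowest mouse of each control group lay within their range. The log2 difference was -0.98 (SE 0.34, adjusted p = 0.0251) from Ctrl and -0.93 (SE 0.34, adjusted p = 0.0384) from OVA. Leaving out Ctrl replicate 1, 2 or 3 or EAE replicate 3 ended the first call, with values from -1.28 to -0.75 over all such fits. The call against OVA was lost in 7 of 15 such fits (OVA replicates 1, 3 and 5 and EAE replicates 1 to 4), with values from -1.11 to -0.78, and also without the filter on low values (adjusted p = 0.0614).

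By day 40 FABP3 was low in every group, at 87.0 to 128 RPKM in Ctrl, 84.0 to 148 in OVA and 91.6 to 129 in EAE mice. It was lower on day 40 than on day 14 in Ctrl (-1.08, SE 0.27, adjusted p = 0.00728) and OVA mice (-0.89, SE 0.27, adjusted p = 0.0389), and 0.08 (SE 0.27) apart in EAE mice. The call in OVA mice was lost under quantile normalization (-0.68, adjusted p = 0.0681) and in 7 of 30 fits that left out 1 mouse (OVA replicates 1, 3 and 5 of day 14 and 1, 3, 4 and 5 of day 40, values from -1.07 to -0.74). The EAE vs. Ctrl difference changed by 1.16 between the days (SE 0.39, adjusted p = 0.0153). Slow fibre markers, whose fibres hold much FABP3, summed to 1082 to 1861 RPKM in EAE mice on day 14, against 1852 to 3061 in Ctrl and 1888 to 2949 in OVA mice. All 8 of them were detected in every mouse. On day 14 4 of 8 were called lower in EAE mice against each control, and 0 higher. Their members moved unequally, with MYL3 at means of 88.0, 264 and 281 RPKM in EAE, Ctrl and OVA mice and MYH7 at 90.2, 102 and 108. On day 40 the 8 markers summed to 1161 to 2901, 1707 to 1893 and 1726 to 3212 RPKM in Ctrl, OVA and EAE mice. The part of the slow fibre genes in the FABP3 and LPL results was not tested.

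CD36, the fatty acid transporter of the fibre and capillary membrane, did not fall with LPL and FABP3. It was at 46.7 to 116 RPKM in Ctrl, 96.5 to 132 in OVA and 78.7 to 119 in EAE mice on day 14. The log2 difference of EAE mice was 0.36 (95% interval -0.03 to 0.76) from Ctrl and -0.17 (-0.57 to 0.23) from OVA. On day 40 CD36 kept between 73.9 and 113 RPKM in all groups, with adjusted p = 0.279 for EAE vs. OVA.

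MLYCD breaks down malonyl-CoA and so frees CPT1. It was at 38.4 ± 7.48 RPKM in EAE, 48.2 ± 16.9 in Ctrl and 56.1 ± 12.1 in OVA mice on day 14 (SD, n = 5). The difference from OVA had an adjusted p of 0.0466 but stayed under the fold threshold (-0.54, SE 0.20), and the difference from Ctrl had an adjusted p of 0.255. CPT1B was at 1.46 to 5.31 RPKM in Ctrl, 3.07 to 6.52 in OVA and 2.82 to 5.03 in EAE mice, with log2 differences of 0.18 (-0.45 to 0.80) and -0.33 (-0.96 to 0.30).

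**Figure D2:**
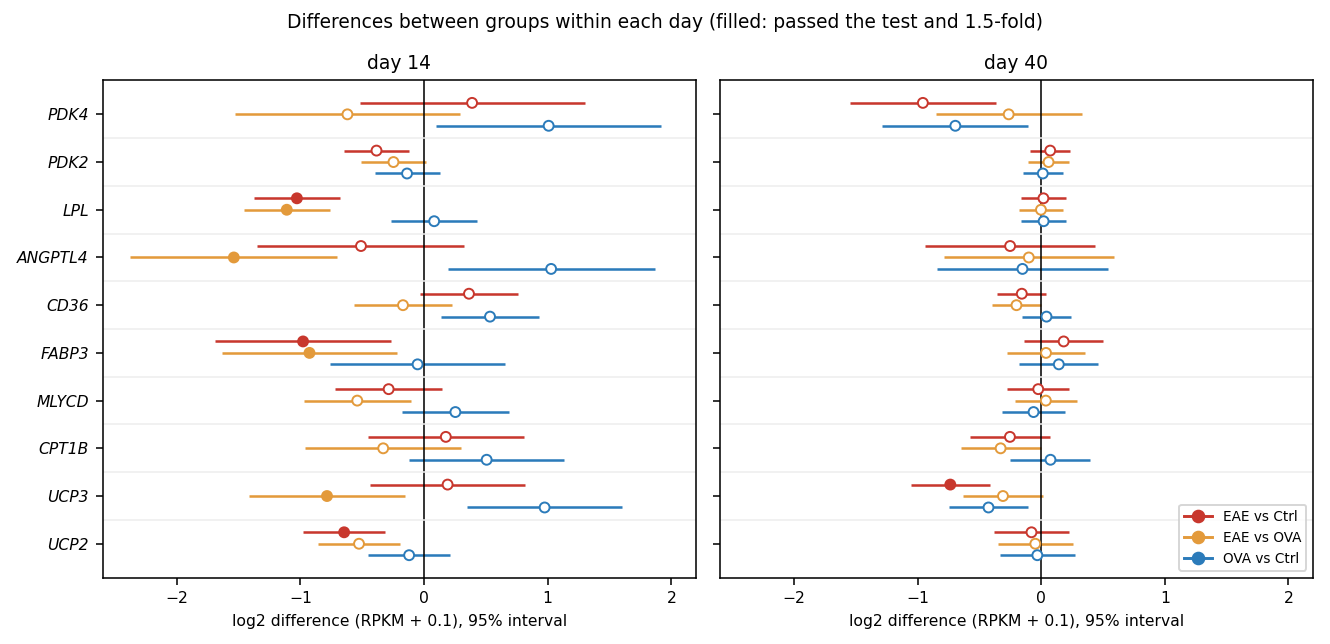
Log2 difference of each gene between groups within a day, with its 95% interval from limma, for the 3 pairs of groups. Filled points passed the test and the 1.5-fold threshold: UCP2, LPL and FABP3 (EAE vs. Ctrl) and UCP3, ANGPTL4, LPL and FABP3 (EAE vs. OVA) on day 14, and UCP3 (EAE vs. Ctrl) on day 40, all lower.

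PDK4 and PDK2 phosphorylate pyruvate dehydrogenase and so hold back glucose oxidation. PDK4 is the form that fasting raises, and PDK2 is expressed at a steadier level. On day 14 PDK4 was at 34.4, 64.2, 221, 70.1 and 37.6 RPKM in Ctrl, at 128, 112, 186, 83.2 and 191 RPKM in OVA and at 52.4, 164, 65.4, 83.1 and 106 RPKM in EAE mice. The groups overlapped widely, and 1 Ctrl mouse (replicate 3) was above all others. The log2 differences were 0.39 (95% interval -0.52 to 1.299, adjusted p = 0.47) for EAE vs. Ctrl, -0.62 (-1.53 to 0.29, adjusted p = 0.266) for EAE vs. OVA and 1.01 (0.10 to 1.92, adjusted p = 0.458) for OVA vs. Ctrl. The first interval includes PDK4 levels over 1.5-fold higher in EAE mice, and the second includes levels over 1.5-fold lower.

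PDK2 was at 163, 224, 243, 212 and 241 RPKM in EAE mice on day 14, below all 5 Ctrl mice (264 to 298 RPKM) but not below all OVA mice (202 to 294). Against Ctrl its log2 difference was -0.38 (SE 0.12, adjusted p = 0.0185), under the fold threshold. PDK2 and LPL were the 2 members of 10 whose EAE and Ctrl mice did not overlap on day 14, beside 32.2% of all genes. Against OVA these were ANGPTL4 and LPL, beside 26.2%.

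On day 40 PDK4 was at 131, 82.0, 221, 174 and 113 RPKM in Ctrl, at 68.3, 152, 75.7, 104 and 51.1 RPKM in OVA and at 86.8, 89.2, 74.3, 52.4 and 56.1 RPKM in EAE mice. Of the 5 EAE mice 3 were below all Ctrl mice, and the other 2 were just above the lowest of them. The log2 difference from Ctrl was -0.96 (SE 0.28), with an adjusted p of 0.0672 over all genes and an exact two-sided permutation p of 0.0238 for the gene alone. EAE and OVA mice were not told apart (-0.26, 95% interval -0.85 to 0.33), and OVA mice were -0.69 (-1.29 to -0.10, adjusted p = 0.999) from Ctrl. PDK2 stood at 217 to 292 RPKM over the 15 mice.

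The uncoupling protein UCP3 of skeletal muscle mitochondria rises with fatty acid supply in fasting. It was the 1 member called on day 40, in EAE vs. Ctrl, beside 0.46% of all genes called and 0.391% called lower. Ctrl mice stood at 44.98, 44.6, 66.5, 48.9 and 52.0 RPKM, OVA mice at 36.1, 43.7, 39.9, 44.6 and 27.4 RPKM and EAE mice at 30.6, 41.2, 31.0, 28.8 and 23.5 RPKM. All EAE mice were below all Ctrl mice (log2 difference -0.73, SE 0.15, adjusted p = 0.0236), and so were all OVA mice, by a narrow margin (44.62 against 44.63 RPKM). The members that did not overlap numbered 1 of 10 in each of these comparisons, beside 5.22% of all genes in EAE vs. Ctrl and 0.678% in OVA vs. Ctrl. EAE vs. OVA gave -0.31 (95% interval -0.63 to 0.01), and there no member was without overlap, beside 5.87%. The UCP3 call was lost when replicate 3 or 5 of Ctrl or of EAE was left out, with values from -0.84 to -0.64, and also with the 10 compared mice alone in the model (adjusted p = 0.0592), with all 30 mice in 1 model (0.306), with the replicate number as a block (0.0706) and under quantile normalization (0.0503).

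On day 14 UCP3 ran the other way in OVA mice. It was at 50.4, 53.9, 65.5, 43.1 and 47.4 RPKM in OVA, at 14.5, 27.5, 42.9, 35.6 and 20.1 RPKM in Ctrl and at 16.2, 52.9, 26.3, 28.6 and 36.8 RPKM in EAE mice. All OVA mice were above all Ctrl mice, again narrowly, and UCP3 was the 1 member of 10 without overlap, beside 2.69% of all genes. The log2 difference was 0.98 (SE 0.30), with an adjusted p of 0.306 over all genes and an exact permutation p of 0.00794 for the gene alone, the smallest that 5 against 5 mice allow. EAE vs. OVA was called (-0.78, SE 0.30, adjusted p = 0.0458), but that call was lost in 10 of 15 fits that left out 1 mouse, with values from -0.99 to -0.56, and without the filter on low values (adjusted p = 0.0711). EAE vs. Ctrl was 0.19 (95% interval -0.44 to 0.82).

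UCP2, a related carrier expressed widely and strongly in immune cells, was at 15.6 ± 3.67 RPKM in Ctrl, 14.1 ± 2.31 in OVA and 9.81 ± 1.68 in EAE mice on day 14 (SD, n = 5). The highest EAE mouse (12.5 RPKM) was above the lowest Ctrl mouse (11.7 RPKM), so the groups overlapped by a little. The log2 difference was -0.65 (SE 0.16, adjusted p = 0.00357) from Ctrl and -0.53 (SE 0.16, adjusted p = 0.0154) from OVA, the latter under the fold threshold. The call against Ctrl was lost without Ctrl replicate 1 or EAE replicate 1, with values from -0.74 to -0.52. The 10 macrophage markers summed to 93.8 to 192 RPKM in EAE mice, against 196 to 324 in Ctrl and 165 to 284 in OVA mice, none of them at 0 in a mouse. The part of macrophage RNA in the UCP2 result was not tested. On day 40 UCP2 was at 9.05 to 15.1 RPKM over all 15 mice.

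In OVA vs. Ctrl 0 of 10 members were called by limma on either day, beside 0.142% of all genes on day 14 and 0% on day 40. On day 14 4 members had an unadjusted p below 0.05 (PDK4, UCP3, ANGPTL4 and CD36, all higher in OVA mice), beside 9.69% of all genes tested, and the exact permutation test of single genes gave 2 (UCP3 and CD36). CD36 was 0.53 higher (SE 0.19, adjusted p = 0.365) and ANGPTL4 1.03 higher (SE 0.40, adjusted p = 0.4) on the log2 scale. On day 40 2 members had an unadjusted p below 0.05 (PDK4 and UCP3, both lower in OVA mice), beside 3.12% of all genes, and the exact test gave 1 (UCP3). EAE vs. OVA on day 40 gave 0 called members by limma, beside 0.209% of all genes, with 2 at an unadjusted p below 0.05 (CD36 and CPT1B, beside 17.4% of all genes) and 0 by the exact test.

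The difference between EAE and Ctrl mice changed from day 14 to day 40 for 4 members (of 10), beside 32.7% of all genes called in that test, 11.7% with a rise and 20.9% with a fall. By adjusted p whatever the fold it was 7 members, beside 16.5% of all genes with a rise and 32.1% with a fall. LPL and FABP3 moved up, as given above, and PDK4 and UCP3 moved down, by -1.35 (SE 0.55, adjusted p = 0.0426) and -0.93 (SE 0.35, adjusted p = 0.0308). Levels in unimmunized mice also differed between the days, since PDK4 was 1.04 (SE 0.39, adjusted p = 0.0422) and UCP3 0.96 (SE 0.25, adjusted p = 0.00826) higher on day 40 than on day 14 in Ctrl mice. With FABP3 these were the 3 members of 10 called between the days in Ctrl mice, beside 9.37% of all genes, 5.02% higher and 4.35% lower. In EAE mice they differed by -0.31 (SE 0.39) and 0.03 (SE 0.25) between the days. The changes of PDK4 and UCP3 lost their calls without the filter on low values (adjusted p = 0.0698 and 0.0511), under median-of-ratios scaling (0.0685 and 0.0568) and in 12 and 6 of 30 fits that left out 1 mouse. The call of PDK4 between the days in Ctrl mice was lost without the filter (adjusted p = 0.0617), under median-of-ratios scaling (0.0607) and in 8 of 30 fits that left out 1 mouse (Ctrl replicates 1, 2, 4 and 5 of day 14 and 1, 3, 4 and 5 of day 40, values from 0.80 to 1.47). In OVA mice 1 of 10 members was called between the days (FABP3, beside 3.97% of all genes and 1.71% lower), and in EAE mice 1 of 9 tested (LPL, 1.02 higher on day 40, SE 0.13, adjusted p = 4.94e-07, beside 21.1% of all genes and 8.36% higher).

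Against OVA mice the change from day 14 to day 40 was called for 2 members (LPL and ANGPTL4, both with a rise), beside 21.8% of all genes, 8.16% with a rise and 13.7% with a fall. By adjusted p alone it was the same 2, beside 11.1% and 24.0%. The change of OVA vs. Ctrl was called for 0 members by limma, beside 0% of all genes, with 4 members at an unadjusted p below 0.05 (PDK4, UCP3, ANGPTL4 and CD36), beside 9.3% of all genes. For UCP3 that change was -1.40 (SE 0.35, adjusted p = 0.222) and for PDK4 -1.70 (SE 0.55, adjusted p = 0.359). With 5 mice in a group, these intervals are wide.

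The balance of paired genes was taken within each mouse, as the log2 ratio of PDK4 to PDK2, of UCP3 to UCP2 and of ANGPTL4 to LPL. Of 18 differences between groups, 0 passed an adjusted p of 0.05 by the exact permutation test, and 3 had an unadjusted p below 0.05. The log2 ratio of PDK4 to PDK2 was -1.88 ± 0.24 in EAE and -0.85 ± 0.62 in Ctrl mice on day 40 (SD, n = 5, exact p = 0.0159, adjusted p = 0.214). The ratio of UCP3 to UCP2 was 1.87 ± 0.41 in OVA and 0.78 ± 0.85 in Ctrl mice on day 14 (exact p = 0.0238, adjusted p = 0.214). ANGPTL4 was -6.07 to -5.07 from LPL on the log2 scale in the 6 group means.

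Some of the members varied together between mice of the same group. The relation was taken over the 30 mice as the correlation of deviations from the group means, with 100000 permutations within groups, for all 45 pairs. Of these, 11 passed an adjusted p of 0.05, all positive. How often pairs of other genes would pass was not tested, so no share over all genes stands beside this count. PDK4 and UCP3 had the highest r (0.83, Spearman's rho 0.81, permutation p = 1e-05 for each, the smallest that the permutations can give, adjusted p = 0.00045). Without the 2 mice farthest from the median in PDK4, r was 0.78, within day 14 it was 0.85 and within day 40 0.77. PDK4 was also related to MLYCD (r = 0.80, rho = 0.72), ANGPTL4 (r = 0.77, rho = 0.68) and CD36 (r = 0.69, rho = 0.54), with adjusted permutation p-values of 0.000788, 0.00081 and 0.0076.

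The other pairs that passed were CD36 with CPT1B (r = 0.81, rho = 0.69), UCP3 with CD36 (0.78, 0.70), UCP3 with MLYCD (0.64, 0.62), UCP3 with ANGPTL4 (0.61, 0.61), ANGPTL4 with MLYCD (0.73, 0.63), FABP3 with MLYCD (0.70, 0.61) and PDK2 with UCP2 (0.49, 0.49, lost under quantile normalization with r = 0.26). Their permutation p-values were 6e-05 to 0.007, and adjusted over the 45 pairs 0.000788 to 0.0287. Over the 11 pairs, r was 0.42 to 0.78 without the 2 farthest mice, 0.54 to 0.90 within day 14 and 0.43 to 0.77 within day 40. Without Ctrl replicate 3 of day 14, which was the highest mouse of its group in 8 of the 10 members (not in PDK2 and UCP2), PDK4 and UCP3 kept an r of 0.81, PDK4 and MLYCD one of 0.70 and PDK4 and ANGPTL4 one of 0.65. LPL, which fell on day 14 in EAE mice, took part in none of the 11 pairs.

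**Figure D3:**
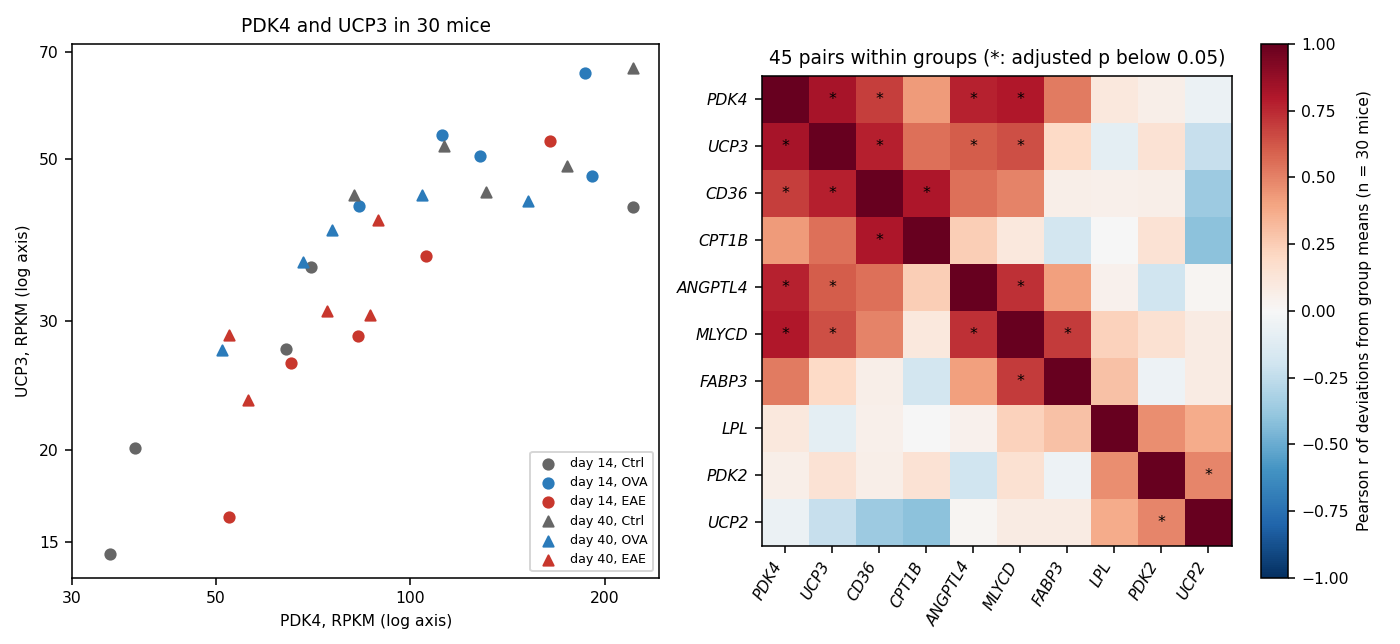
Left, PDK4 against UCP3 in RPKM (log axes) in the 30 mice, coloured by group and shaped by day. Right, Pearson's r of all 45 pairs over deviations from the group means, where red is positive and stars mark the 11 pairs that passed the permutation test. PDK4 and UCP3 have the highest r (0.83).

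Over the 30 mice and 9048 other genes above 3 RPKM in a group, the gene most like PDK4 was UCP3 (r = 0.86), followed by NCEH1 (0.73) and ANGPTL4 (0.72). The genes most like UCP3 after PDK4 were CPT1A (0.83) and NCEH1 (0.80), and those most like CD36 were ACSL1 (0.91), NCEH1 (0.88) and HSDL2 (0.86). LPL was most like IDH2 (0.95), FAM57B (0.95) and LDHB (0.94), and FABP3 most like CPT2 (0.87), ACADS (0.87) and SLC25A20 (0.86). MLYCD was most like PLIN5 (0.88), SLC25A34 (0.87) and SLC25A20 (0.81), and ANGPTL4 most like PLIN5 (0.77), MLYCD (0.77) and PDK4. UCP2 was most like SOD3, GRN and GNAI2 (0.87 to 0.88), PDK2 most like BCKDHA, EEF1A2 and ALDH4A1 (0.81 to 0.86) and CPT1B most like FAM210A, MAP4K3 and GPLD1 (0.84 to 0.86). These correlations are descriptions over mice that share groups and days, and the 30 points include the group differences themselves.

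Regulators and neighbours of the 10 genes were taken from 9 lists of related genes. Of 93 related genes tested in EAE vs. Ctrl on day 14, 16 were called higher and 16 lower. Of all 8771 genes tested, 1282 were called higher and 1036 (11.8%) lower, 26.4% together. In EAE vs. OVA it was 12 higher and 19 lower of 94, beside 957 and 805 (9.28%) of 8674 genes, 20.3% together. The counts of each list are to be set beside these shares. Among transcription factors and coactivators of the switch, 3 of 16 tested were higher and 4 lower against Ctrl, and 1 and 4 against OVA (list median 0.195 and -0.009, all genes 0.114 and 0.113). PPARA, the fatty acid receptor, was lower at 2.18 ± 0.56 RPKM in EAE mice, against 3.51 ± 0.40 in Ctrl (log2 difference -0.69, SE 0.17, adjusted p = 0.00428) and 3.90 ± 0.66 in OVA mice (-0.83, SE 0.17, adjusted p = 0.00153). ESRRA, the oestrogen-related receptor that drives mitochondrial genes, fell by 0.88 and 0.89, and RXRG, a partner of the PPARs in muscle, fell by 0.88 and 1.09 on the log2 scale. FOXO1 was higher, at 12.0 ± 5.49 RPKM against 6.06 ± 0.47 and 6.51 ± 0.63 (0.87, SE 0.21, adjusted p = 0.00331, and 0.77, SE 0.21, adjusted p = 0.0088). PPARD did not pass the test against either control (0.19 and 0.21), and PPARGC1A, a coactivator of both receptors, was lower than in OVA mice only under the fold threshold (-0.49, SE 0.13, adjusted p = 0.00862). NRIP1 and FOXO3 were 2.23 (SE 0.61, adjusted p = 0.00729) and 1.62 (SE 0.55, adjusted p = 0.024) higher than in Ctrl mice. By the filter of 3 RPKM, PPARA entered its tests only through the control mice. NRIP1 (mean 4.83 RPKM in EAE and 1.22 in Ctrl mice) and FOXO3 (4.66 and 1.68) entered the test against Ctrl only through the EAE mice. The call of PPARA against Ctrl was lost without EAE replicate 2 (-0.56) and with a pseudocount of 1, that of FOXO1 against OVA without EAE replicate 5 (0.55), and that of FOXO3 without Ctrl replicate 1 or EAE replicate 2 (values from 1.14 to 1.88 over all such fits).

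Glucocorticoid response genes were higher in 8 of 13 tested against each control, with 1 lower against Ctrl (SESN1, a stress-response gene named here after its value was seen). Among all genes tested 1282 of 8771 were called higher than in Ctrl and 957 of 8674 higher than in OVA mice. The list's median was 1.17 against Ctrl and 0.80 against OVA. FKBP5, a classic glucocorticoid target, was at 16.1 ± 7.23 RPKM in EAE, 2.97 ± 1.43 in Ctrl and 5.10 ± 4.06 in OVA mice (2.40, SE 0.40, adjusted p = 0.000233, and 1.79, SE 0.40, adjusted p = 0.00263). By the filter of 3 RPKM it entered the test against Ctrl only through the EAE mice. PER1 was 2.35 and 1.53 higher, and DDIT4, an inhibitor of growth signalling, was 1.67 and 1.63 higher.  PDK4, itself a glucocorticoid target, was not called on day 14, as given above.

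Among genes of fatty acid uptake and activation, 3 of 12 were higher and 3 lower against Ctrl, and 2 and 4 against OVA. Beside these stood 26.4% and 20.3% of all genes tested, called either way against Ctrl and OVA. The acyl-CoA synthetases ACSL6 and ACSL3 rose the most. ACSL6 was at 46.2 ± 13.8 RPKM in EAE mice, against 7.84 ± 1.96 in Ctrl (2.53, SE 0.22, adjusted p = 1.16e-06) and 9.89 ± 1.06 in OVA mice, and ACSL3 at 12.8 ± 3.91, against 3.501 ± 0.23 and 3.46 ± 0.45 RPKM. ACSL1, the main synthetase of muscle, did not pass the test (0.21 and -0.27, SE 0.27 for both, adjusted p = 0.55 and 0.446). On the malonyl-CoA side, ACACB, which makes the CPT1 inhibitor at the mitochondrion, was higher than in Ctrl mice (0.77, SE 0.22, adjusted p = 0.00897) and 0.56 (SE 0.22, adjusted p = 0.0528) from OVA. CPT1A, the form of liver and many other tissues, was at 2.56 ± 0.78 RPKM in EAE, 2.83 ± 0.84 in Ctrl and 3.74 ± 0.70 in OVA mice, and was tested against OVA only (-0.57, SE 0.25, adjusted p = 0.0861).

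Genes of glucose use were lower in 4 of 10 against Ctrl and 3 of 10 against OVA, with none higher. Of all genes tested 11.8% and 9.28% were called lower. LDHA, the lactate dehydrogenase of fast muscle, fell to 509 ± 141 RPKM from 1451 ± 244 in Ctrl and 1346 ± 259 in OVA mice (-1.55 and -1.43, SE 0.20 for both, adjusted p = 2.19e-05 and 4.91e-05). PFKFB1, which sets the pace of glycolysis, and LDHB fell by 1.47 and 1.19 on the log2 scale against Ctrl. In the pyruvate dehydrogenase list 1 of 10 tested was lower against Ctrl (MPC2, a subunit of the mitochondrial pyruvate carrier, -0.79, SE 0.19, adjusted p = 0.00329) and 2 against OVA (MPC2 and DLAT). PDHA1, the subunit that the kinases phosphorylate, differed by -0.01 (SE 0.25) from Ctrl and -0.43 (SE 0.25, adjusted p = 0.184) from OVA mice.

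Of the other PPAR target genes 13 were tested, of which 1 was lower against Ctrl (ACAA2, -0.98, SE 0.14) and 4 against OVA, with none higher. Called lower were 11.8% and 9.28% of all genes tested. Of the lipolysis genes 1 of 7 was higher and 1 lower in each comparison, PNPLA2, the first lipase of triglyceride breakdown, being 0.60 higher in both and MGLL, the last, 0.90 and 0.98 lower. PNPLA2 lay close to the fold threshold and lost its call under both other scalings. Of 3 mitochondrial carriers tested, SLC25A4, the main adenine nucleotide carrier of muscle, was lower in both (-0.87 and -1.04). Fat tissue markers summed to 598 to 1322 RPKM in EAE mice on day 14, against 160 to 421 in Ctrl and 246 to 568 in OVA mice. CAR3, which muscle also makes, held most of that sum (mean 957 RPKM in EAE mice), while ADIPOQ had means of 7.38, 8.42 and 9.03 and PLIN1 of 2.58, 3.36 and 3.39 RPKM in EAE, Ctrl and OVA mice. The part of fat tissue in these results was not tested.

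**Figure D4:**
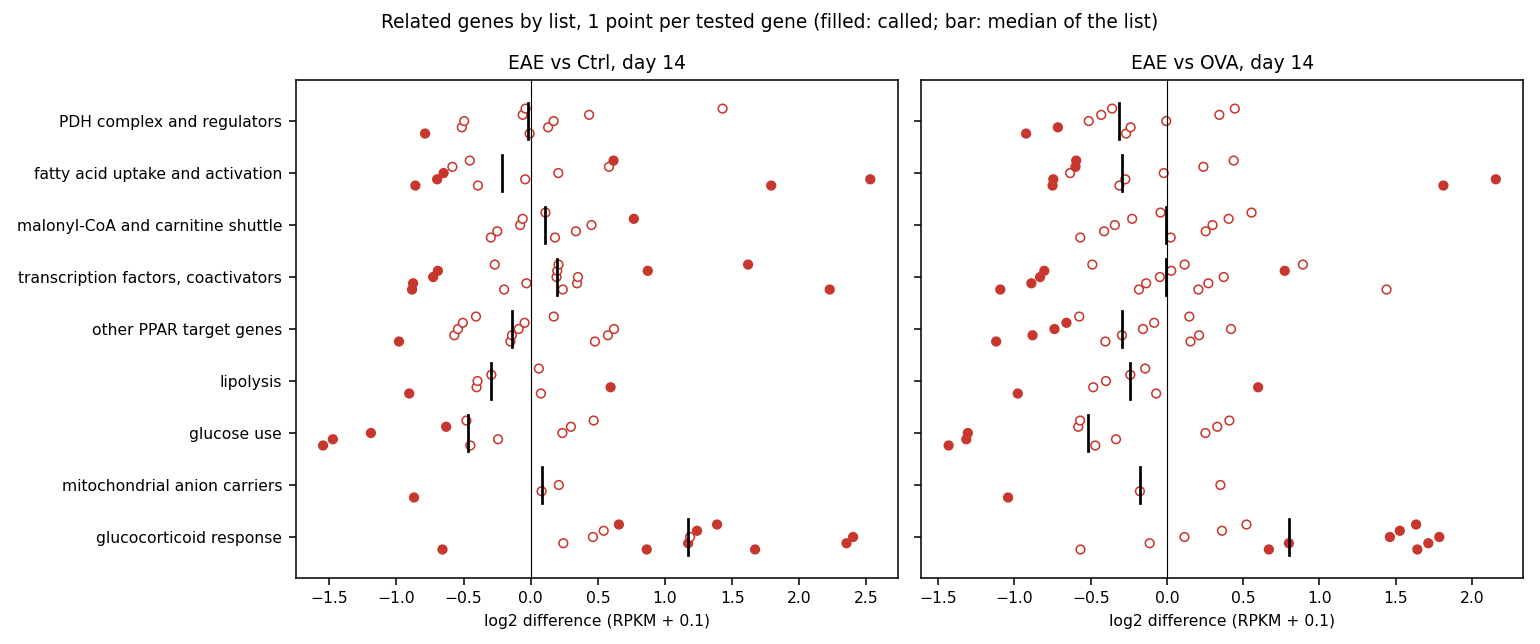
Log2 difference of each tested related gene on day 14, by list, for EAE vs. Ctrl and EAE vs. OVA, with called genes filled and the list median as a bar. The glucocorticoid list lies to the right (median 1.17 and 0.80) and the glucose use list to the left (-0.46 and -0.52).

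On day 40, in EAE vs. Ctrl, 1 of 92 related genes was called by limma, CPT1A, at 2.66 ± 0.22 RPKM in EAE, 4.65 ± 1.08 in Ctrl and 3.53 ± 0.67 in OVA mice (-0.76, SE 0.145, adjusted p = 0.0197, EAE vs. Ctrl). In that comparison 24 had an unadjusted p below 0.05, beside 27.9% of all genes tested. CPT1A entered the EAE vs. Ctrl test only through the Ctrl mice, since its mean in EAE mice was under the filter of 3 RPKM. It is also the gene that was second most like UCP3 over the 30 mice, a likeness that includes this same group difference. The call was lost without EAE replicate 3 (-0.74, adjusted p = 0.0575), with the 10 compared mice alone (adjusted p = 0.0561), with all 30 mice in 1 model (0.255), with the replicate number as a block (0.0706) and under quantile normalization (0.0555). In OVA vs. Ctrl 0 related genes were called by limma on either day, with 7 of 91 and 7 of 93 at an unadjusted p below 0.05, beside 9.69% and 3.12% of all genes. In EAE vs. OVA on day 40 limma called 0 of 92, with 18 at an unadjusted p below 0.05, beside 17.4%.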

How the data were processed

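RNA from EDL muscle of 30 mice (5 in each of 6 groups) had been sequenced as directional poly(A) libraries, and the submitters' processing notes name Subread, featureCounts and mm10. The authors deposited 1 table of log2(RPKM + 1) values for 21073 genes, which mass balance over the libraries identified as log2. It was turned back into RPKM, where RPKM had been assumed beforehand. Of all values 25.8% were 0 and 27 symbols had turned into dates. Read depth was estimated from the steps between low values (18.1 to 31.7 M reads per mouse).

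Tests used limma 3.58.1 (R 4.3.3) on log2(RPKM + 0.1) with a trend of variance over level, so fold changes of low genes are understated. The 15 mice of a day entered 1 model, and all 30 entered tests between days. Genes needed a mean above 3 RPKM in a compared group. Single genes were also tested by exact two-sided permutation, and pairs by 100000 permutations. Members and lists were chosen with earlier results of these data known, and the motifs after the files were read. All members were named, with up to 3 called genes of each list by size of change, 9 related genes fixed by name (1 of them is not reported here) and the 3 genes most like each member. Alternatives covered pseudocount, filter, scaling, trend, block, model and each mouse left out. The code was tested on simulated data. Mice are separate animals by the labels, and no batch is named.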

Additional observations from a re-analysis of the deposited data

Results flagged for a closer look

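In 60 groups of 5 mice, of which chance would put about 5% past Dixon's critical value, 3 values stood apart, all of them in unimmunized mouse replicate 3 of day 14. PDK4 was at 221 RPKM in that mouse (next 70.1), ANGPTL4 at 8.55 RPKM (next 3.17) and MLYCD at 76.9 RPKM (next 46.4). Without that mouse r between PDK4 and UCP3 within groups was 0.81.

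The difference between EAE and control mice changed from day 14 to day 40 with an adjusted p below 0.05 (limma) for 7 members against Ctrl and 2 against OVA. Against Ctrl the change on the log2 scale was -1.35 for PDK4, -0.93 for UCP3, -0.52 for CD36, 0.46 for PDK2, 0.57 for UCP2, 1.05 for LPL and 1.16 for FABP3. Of these CD36, PDK2 and UCP2 stayed under the 1.5-fold threshold. Against OVA it was 1.44 for ANGPTL4 and 1.11 for LPL.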

How the results depend on the processing

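The calls of LPL on day 14, of its change between the days and of its day 40 vs. day 14 difference in EAE mice were kept under all alternatives run, and so was that of ANGPTL4 in EAE vs. OVA on day 14. Of 6317 alternative values for members, some related genes, pairs and ratios, 5931 kept their direction and their side of the threshold. Many of these belong to results that were not called, such as all 18 ratio differences, so this count does not measure how stable the calls were. The number of members called changed by at least 1.5 times as follows. Without a filter on low values it was 2 in EAE vs. OVA on day 14, 2 for the change of EAE vs. Ctrl and 1 for that of EAE vs. OVA. On day 40 EAE vs. Ctrl gave 0 under quantile normalization, with all 30 mice in 1 model and with the 10 compared mice alone. For the change of EAE vs. OVA it was 5 under median-of-ratios scaling and 5 under quantile normalization, and for day 40 vs. day 14 in OVA mice 2 and 0. For day 40 vs. day 14 in Ctrl mice it was 2 under median-of-ratios scaling and without the filter. By adjusted p alone it was 6 in EAE vs. OVA on day 14 (also 6 under quantile normalization), 7 for the change of EAE vs. Ctrl, 2 for day 40 vs. day 14 in OVA and 2 in EAE mice. Leaving out 1 mouse at a time gave 1 to 3 for EAE vs. Ctrl and 2 to 4 for EAE vs. OVA on day 14, 0 to 1 for EAE vs. Ctrl on day 40, 2 to 6 and 1 to 4 for the changes of EAE vs. Ctrl and EAE vs. OVA, and 0 to 2 in OVA and 2 to 3 in Ctrl mice for day 40 vs. day 14. The change of EAE vs. Ctrl lost PDK4 and UCP3 and gained UCP2 under median-of-ratios scaling, at a count of 3. The cause of these shifts was not tested.

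With the replicate number as a block, EAE vs. Ctrl on day 40 gave 0 called members in place of 1 (UCP3, adjusted p = 0.0706), and no other count of called members moved. Same-numbered mice deviated together with r over 0.1 in 8 of 30 pairs (-0.715 to 0.686). On day 14 replicate 1 did so in each comparison (r = 0.498, 0.686 and 0.608), though these comparisons share mice. The labels do not say whether the numbers pair the mice, and these values cannot decide it.

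Another scaling shifted the median of all genes by over 0.1 for the change of EAE vs. Ctrl (0.128 median-of-ratios, 0.139 quantile), that of EAE vs. OVA (0.115, 0.141) and day 40 vs. day 14 in EAE mice (0.104 quantile). Calls higher and lower among all genes then went from 1059 and 1888 to 1425 and 1353, from 729 and 1222 to 950 and 838 (median-of-ratios), and from 728 and 1106 to 896 and 810 (quantile). They went under median-of-ratios scaling from 6 and 34 to 10 and 11 in EAE vs. Ctrl on day 40, and from 441 and 382 to 252 and 580 in Ctrl and from 195 and 148 to 152 and 193 in OVA mice between the days.

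Values that changed sign lay near 0 and were not called: under quantile normalization for EAE vs. Ctrl, day 40 PDK2 -0.049 and LPL -0.086, for EAE vs. OVA, day 40 PDK2 -0.019, ANGPTL4 0.042 and FABP3 -0.032, for OVA vs. Ctrl, day 40 PDK2 -0.030 and LPL -0.0050, for EAE vs. OVA between days CD36 0.022, for day 40 vs. day 14 in Ctrl PDK2 0.041 and LPL 0.20, for day 40 vs. day 14 in OVA PDK2 0.14, LPL 0.11 and CPT1B -0.064; under median-of-ratios scaling for EAE vs. Ctrl, day 40 UCP2 0.013 and MLYCD 0.068, for EAE vs. OVA, day 40 UCP2 0.025 and LPL 0.071, for EAE vs. OVA between days CD36 0.086, for day 40 vs. day 14 in OVA CPT1B -0.013. Values that changed sign when 1 mouse was left out ranged as follows. For EAE vs. Ctrl, day 14 they were UCP3 -0.022 to 0.41, CPT1B -0.11 to 0.33, PDHA1 -0.29 to 0.083. For OVA vs. Ctrl, day 14 they were UCP2 -0.21 to 0.0057, LPL -0.0050 to 0.15, FABP3 -0.36 to 0.18. For EAE vs. Ctrl, day 40 they were UCP2 -0.15 to 0.0049, LPL -0.022 to 0.11, MLYCD -0.081 to 0.043. For EAE vs. OVA, day 40 they were UCP2 -0.15 to 0.036, ANGPTL4 -0.36 to 0.021, LPL -0.042 to 0.091, FABP3 -0.067 to 0.14, MLYCD -0.045 to 0.12, ANGPTL4 to LPL -0.37 to 0.15. For OVA vs. Ctrl, day 40 they were PDK2 -0.032 to 0.057, UCP2 -0.11 to 0.068, ANGPTL4 -0.39 to 0.11, LPL -0.0099 to 0.047, CD36 -0.0067 to 0.089, MLYCD -0.14 to 0.021, CPT1B -0.015 to 0.15, ANGPTL4 to LPL -0.42 to 0.097. For EAE vs. Ctrl between days they were ANGPTL4 -0.14 to 0.54. For EAE vs. OVA between days they were CD36 -0.11 to 0.036, CPT1B -0.11 to 0.16. For OVA vs. Ctrl between days they were UCP2 -0.037 to 0.19, LPL -0.13 to 0.025, FABP3 -0.035 to 0.50. For day 40 vs. day 14 in Ctrl they were ANGPTL4 -0.092 to 0.59, LPL -0.12 to 0.035. For day 40 vs. day 14 in OVA they were PDK2 -0.12 to 0.014, CPT1B -0.098 to 0.17. For day 40 vs. day 14 in EAE they were UCP3 -0.19 to 0.24, FABP3 -0.0069 to 0.16, MLYCD -0.056 to 0.10, CPT1B -0.051 to 0.16.

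Depth limits ANGPTL4 and CPT1B most, and 5 mice a group leave intervals of PDK4 and ANGPTL4 wide. The level of CPT1B, and with it its pairs and likeness, is also uncertain because the gene lies inside a read-through gene. Counting error of single mice cannot be separated from their spread. The deposited values hold no raw counts, so no count model was run.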
